A study of Mus musculus with 6 samples.

Results

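Cholesterol synthesis genes and targets of SREBP2 were described in mouse liver, as a set of 27 genes of the 23291 gene symbols measured. The members were chosen by name, from a list of 29 symbols in which 2 genes carry both an older and a newer name, and the name present in the tables was used (Sc5d and Sc4mol, the latter now Msmo1). Livers of C57BL/6 mice had been snap frozen, and their total RNA was sequenced from TruSeq libraries. The diet group received a high fat diet, called Western diet in the sample titles, for 3 months. The dabigatran group received that diet for 3 months with 10 mg of dabigatran etexilate, the oral prodrug of a thrombin inhibitor, per gram of diet. Both groups thus share strain, tissue, diet and duration, and the age of the mice is not among the sources used here. Each group has 3 tables (replicates 0, 1 and 2), but those of dabigatran replicates 0 and 1 held the same value for all 23291 genes and carry the number 1 inside. They were counted as 1 library, dabigatran replicate 1, which leaves 3 diet and 2 dabigatran libraries. Apart from the word mice in the series' design text, nothing says that replicates are separate animals, so p-values measure the spread between these libraries.

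Cholesterol is built from acetyl-CoA through HMG-CoA and mevalonate to isoprenoids, which are joined to squalene, closed to the ring of lanosterol and trimmed to cholesterol. SREBP2, the product of Srebf2, is a membrane-bound transcription factor that switches on genes of this pathway when sterols in the endoplasmic reticulum are low. SCAP carries it to the Golgi for cleavage, and the INSIG proteins hold SCAP back when sterols are plentiful. In liver the pathway also supplies bile acids and lipoproteins, and it varies with feeding and time of day.

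The promoters of 5 members are shown because these genes had the largest differences between the groups, in opposite directions, among the members whose groups did not overlap and that the promoter table holds. They are the 250 bases before the start that RefSeq annotates (GRCm38.p6, gene strand, 5′ to 3′). GENCODE, from which the gene positions below come, starts Idi1, Hsd17b7 and Lss further upstream, so that their windows run into the gene as given there, and both marked boxes of Idi1 and the last of Hsd17b7 lie in that stretch. Capitals mark 2 motifs searched on both strands: TCACNCCAC, a form of the sterol regulatory element that SREBP2 binds, and CCAAT, the box of the SREBP partner NF-Y, which reads ATTGG on the other strand. The motifs did not overlap each other. The windows are chr13:119690101-119690350 (plus strand) for Hmgcs1, chr13:8885356-8885605 (plus) for Idi1, chr1:169969206-169969455 (minus) for Hsd17b7, chr10:76531355-76531604 (plus) for Lss and chr13:45389492-45389741 (plus) for Mylip.
Hmgcs1: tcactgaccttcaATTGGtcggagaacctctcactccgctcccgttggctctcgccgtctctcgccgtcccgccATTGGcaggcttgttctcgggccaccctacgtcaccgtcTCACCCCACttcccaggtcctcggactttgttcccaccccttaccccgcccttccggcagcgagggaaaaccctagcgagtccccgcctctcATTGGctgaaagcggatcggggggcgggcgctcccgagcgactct
Idi1: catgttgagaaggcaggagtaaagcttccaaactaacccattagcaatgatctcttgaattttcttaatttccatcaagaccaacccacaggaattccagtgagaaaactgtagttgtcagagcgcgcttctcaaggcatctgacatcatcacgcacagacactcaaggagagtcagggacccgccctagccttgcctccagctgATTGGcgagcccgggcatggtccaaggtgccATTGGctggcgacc
Hsd17b7: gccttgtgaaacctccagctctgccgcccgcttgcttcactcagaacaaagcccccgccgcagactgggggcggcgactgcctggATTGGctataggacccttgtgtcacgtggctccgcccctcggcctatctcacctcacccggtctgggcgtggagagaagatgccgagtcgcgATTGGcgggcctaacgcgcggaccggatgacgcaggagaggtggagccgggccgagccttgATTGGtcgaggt
Lss: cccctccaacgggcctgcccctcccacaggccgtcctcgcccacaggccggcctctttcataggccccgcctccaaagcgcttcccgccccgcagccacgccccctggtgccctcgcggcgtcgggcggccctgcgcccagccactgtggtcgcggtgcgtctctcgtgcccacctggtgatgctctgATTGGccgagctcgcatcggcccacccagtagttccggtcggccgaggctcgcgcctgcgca
Mylip: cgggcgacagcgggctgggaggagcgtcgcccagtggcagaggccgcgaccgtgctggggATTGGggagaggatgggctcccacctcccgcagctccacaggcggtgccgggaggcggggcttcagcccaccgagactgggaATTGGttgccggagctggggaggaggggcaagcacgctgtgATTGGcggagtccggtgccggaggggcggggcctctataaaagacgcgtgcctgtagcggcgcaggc

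Hmgcs1, which was lower in the dabigatran libraries, held TCACNCCAC once, 137 bases before its start, with 3 NF-Y boxes. Idi1, Hsd17b7, Lss and Mylip, which were higher, held 2, 3, 1 and 3 NF-Y boxes and no TCACNCCAC in these windows. Over the 22 of 27 members that matched the promoter table, 1 held TCACNCCAC and 20 held CCAAT at any of their starts (90.9%). Of all 27025 genes in that table, 1.225% and 37.495% did. A match is a description of letters and was not tested as a binding site, and members whose groups overlapped, such as Ebp and Tm7sf2, held CCAAT as well.

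No member passed the test between the groups. Values are FPKM (fragment counts divided by gene length and library size), and limma compared log2(FPKM + 0.5) between the 3 diet and 2 dabigatran libraries. A gene was tested where 3 or more of the 5 libraries reached 1 FPKM, which 24 members and 10247 genes in all did. With a Benjamini-Hochberg adjusted p under 0.05, 0 members rose and 0 fell, beside 0.429% of all tested genes called (0.127% higher and 0.303% lower). The lowest adjusted p of a member was 0.156. At an unadjusted p under 0.05, 5 members were higher and 3 lower (8 of 24), beside 16.0% of all tested genes (6.87% higher and 9.13% lower). The 5 were Idi1, Mylip, Dhcr7, Cyp51 and Hsd17b7, and the 3 were Hmgcs1, Acat2 and Soat2. Without dabigatran replicate 2 there were 2 higher and 0 lower, beside 3.32% and 6.54% of all tested genes, and without diet replicate 0 there were 3 and 2, beside 4.31% and 6.05%. The groups did not overlap in 12 of the 24 members, with 9 higher and 3 lower in both dabigatran libraries, beside 34.4% of all tested genes (17.2% higher and 17.2% lower). The count of 3 lower members was 5 without diet replicate 1 and 9 without dabigatran replicate 1, fits in which 25.3% and 31.5% of all tested genes lay lower without overlap, since fewer libraries separate more easily. The median log2 difference was 0.12 over the 24 members and 0.02 over all tested genes. In bulk liver a change in the cells present and a change in RNA per cell cannot be told apart.

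Levels of the members spanned a wide range. Insig2 had the highest mean FPKM in both groups, followed in the diet group by Sc5d, Ebp and Tmem97, and Sqle, Mvd and Mvk had the lowest means there. The steps between low values give relative depth, which relative to diet replicate 0 was 0.761 and 0.967 in the other diet libraries and 0.857 and 0.772 in the dabigatran libraries (replicate 1 before replicate 2). With these, values of 23 members resolved into whole fragments, which are the smallest numbers in the observed ratio. They ran from 0 for Mvd to 390 for Sc5d. The search stopped at 400, and Insig2 was among the members that did not resolve.

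**Figure D1:**
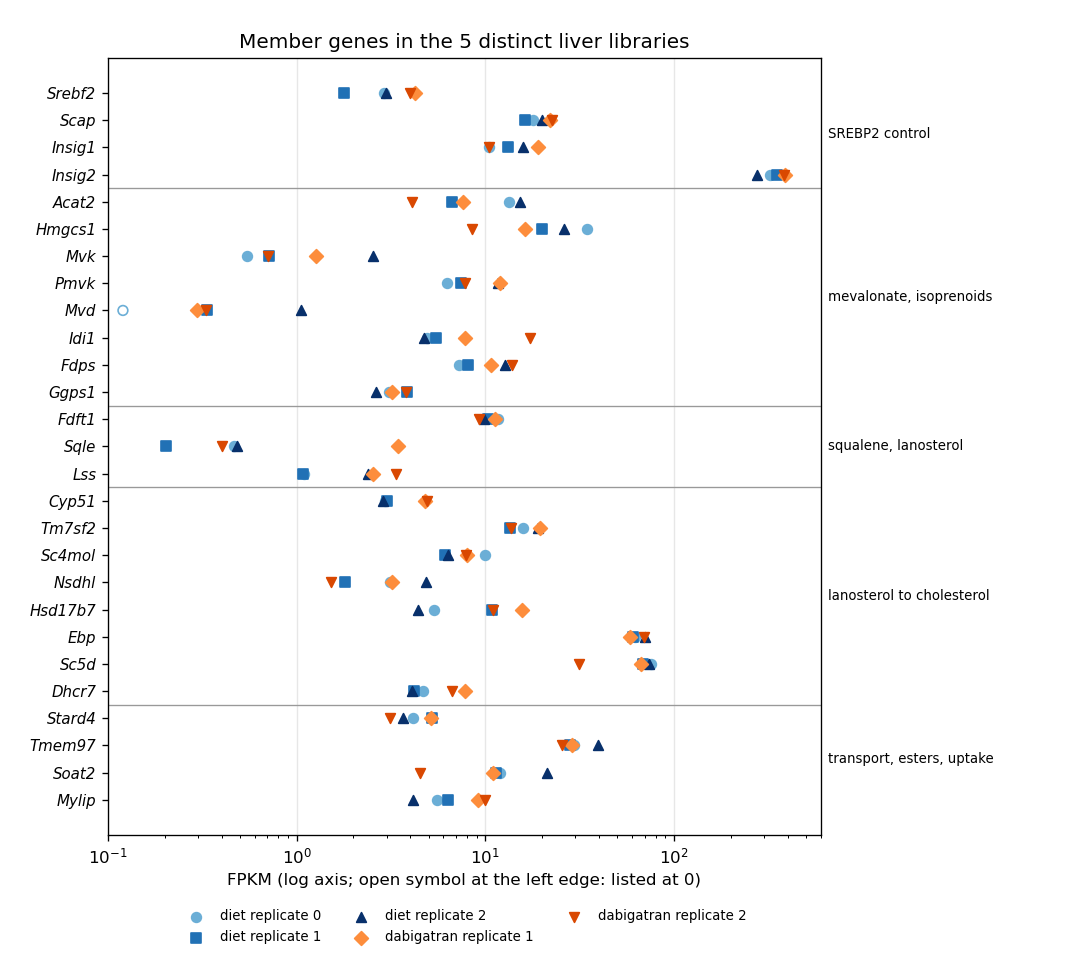
FPKM (log axis) of the 27 members in the 5 distinct libraries, in the order of their roles, with blue symbols for diet and orange for dabigatran libraries. Insig2 lies between 276 and 387 FPKM in each library, while Sqle, Mvd and Mvk lie at 3.44 FPKM or below, and Mvd is listed at 0 in diet replicate 0.

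The 4 genes that control SREBP2 were all a little higher on average, with a median log2 difference of 0.29, and none passed the test. Of all 10247 tested genes, 5315 were higher on average too, and Insig1 changed direction in 3 of the alternative fits described below. Srebf2 (chromosome 15, 82147181 to 82205379), the transcription factor itself, stood at 2.89, 1.78 and 2.99 FPKM in diet replicates 0, 1 and 2 and 4.22 and 3.98 in dabigatran replicates 1 and 2. Both dabigatran values were above all diet values, on 15 to 40 fragments per library. The log2 difference was 0.62 ± 0.29 (SE; 95% interval -0.05 to 1.28; limma adjusted p = 0.344). Scap, the escort protein, stood at 17.9, 16.2 and 20.1 FPKM in the diet libraries and 21.9 and 22.6 with dabigatran, again without overlap (log2 difference 0.30 ± 0.18, SE). Of its 50-base windows, 10.0% also occur in 5830462I19Rik, whose exons overlap it on the opposite strand.

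The 2 INSIG genes differed in how steady they were. Insig2 (chromosome 1, 121304353 to 121332589), whose liver transcript is known to respond to feeding rather than to SREBP2, stood at 324, 351 and 276 FPKM in the diet libraries and 387 and 383 with dabigatran. The groups did not overlap, and the log2 difference was 0.29 ± 0.18 (SE; 95% interval -0.12 to 0.69). Insig1, a well known target of SREBP2, stood at 10.5, 13.2 and 15.9 FPKM in the diet libraries and 19.0 and 10.5 with dabigatran. Its groups overlapped fully, with 1 dabigatran library at the top and the other at the bottom of the range. On the log2 scale the difference was 0.12, with a 95% interval from -0.56 to 0.79. Per length, Insig2 exceeded Insig1 by 30.8, 26.7 and 17.4 times in the diet libraries and by 20.3 and 36.6 times in the dabigatran libraries.

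The enzymes from acetyl-CoA to the isoprenoids had differences in both directions, with Hmgcs1 below and Idi1 above the diet range in both dabigatran libraries. None of the 6 tested of these 8 passed, and their median log2 difference was 0.17. Hmgcs1 (chromosome 13, 119690379 to 119708260), the cytosolic HMG-CoA synthase whose promoter is shown above, stood at 34.5, 20.1 and 26.1 FPKM in the diet libraries and 16.3 and 8.47 with dabigatran. Both dabigatran values lay below all diet values, and the 5 libraries held 269, 119, 197, 109 and 51 fragments. This gave a log2 difference of -1.12 ± 0.32 (SE; 95% interval -1.86 to -0.39; limma adjusted p = 0.157). Of its windows, 11.6% are shared, mostly with Gm48342 on the opposite strand. Acat2, the cytosolic thiolase that joins acetyl-CoA units, stood at 13.3, 6.66 and 15.3 FPKM in the diet libraries and 7.64 and 4.10 with dabigatran. Diet replicate 1 lay between the dabigatran libraries, so the groups overlapped (log2 difference -0.92 ± 0.39, SE, and -0.51 without dabigatran replicate 2). Acat2 is uncertain, since 39.1% of its windows also occur in other genes, mostly its paralog Acat3 and its neighbour Tcp1.

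Idi1 (chromosome 13, 8885501 to 8892451), the isopentenyl diphosphate isomerase, stood at 4.90, 5.46 and 4.76 FPKM in the diet libraries and 7.79 and 17.3 with dabigatran. The diet libraries lay close together, and both dabigatran libraries were above them but far from each other. The log2 difference was 1.13 ± 0.32 (SE; 95% interval 0.39 to 1.88; limma adjusted p = 0.156). Of its windows, 25.3% are shared, mostly with Gm13502 and with Gm48574, whose exons overlap Idi1 on the opposite strand. Hmgcs1 and Idi1 thus diverged within the same libraries: the ratio of their FPKM was 7.05, 3.67 and 5.49 in the diet libraries and 2.09 and 0.490 with dabigatran, a pair chosen after its values were seen.

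The other isoprenoid enzymes overlapped between the groups. Fdps, which makes farnesyl diphosphate, stood at 9.36 ± 2.93 FPKM in the diet group (SD, n = 3) and 12.2 ± 2.22 with dabigatran (SD, n = 2), with 26.2% of its windows shared. The phosphomevalonate kinase gene Pmvk stood at 8.45 ± 2.84 and 9.87 ± 2.92 FPKM, and Ggps1, which makes geranylgeranyl diphosphate, 3.19 ± 0.601 and 3.48 ± 0.415 (SD, n = 3 and n = 2). Mvk, the mevalonate kinase, and Mvd, the mevalonate diphosphate decarboxylase, were too low for the test. Mvk stood at 0.544, 0.715 and 2.53 FPKM in the diet libraries and 1.27 and 0.704 with dabigatran, on 2 to 9 fragments. Mvd was listed at 0 in diet replicate 0 and had 0.334 and 1.05 FPKM in the other diet libraries and 0.296 and 0.329 with dabigatran, on 1 to 4 fragments.

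Of the enzymes that make and close squalene, Lss was higher in both dabigatran libraries. Lss (chromosome 10, 76531588 to 76557138), the lanosterol synthase, stood at 1.09, 1.07 and 2.40 FPKM in the diet libraries and 2.54 and 3.35 with dabigatran. Diet replicate 2 came close to the lower dabigatran library, and the 5 libraries held 8, 6, 17, 16 and 19 fragments. On the log2 scale the difference was 0.82 ± 0.37 (SE; 95% interval -0.02 to 1.66; limma adjusted p = 0.322). Fdft1, the squalene synthase, stood at 10.6 ± 0.985 FPKM on the diet alone and 10.2 ± 1.44 with dabigatran (SD, n = 3 and n = 2), and its log2 difference had an interval from -0.52 to 0.41. Of its windows 26.5% are shared, mostly with Ctsb on the opposite strand, and exons of Lss overlap 4930483K19Rik there.

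Sqle, the squalene epoxidase and a rate-controlling step, was below the level for the test. It stood at 0.466, 0.204 and 0.482 FPKM in the diet libraries and 3.44 and 0.402 in dabigatran replicates 1 and 2. A single library, dabigatran replicate 1, was high, with 19 fragments against 2 in dabigatran replicate 2 and 1 to 3 in the diet libraries. The ratio between the dabigatran libraries was 8.56, with a 95% exact binomial interval from 2.06 to 75.8 that covers counting error only.

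The enzymes that turn lanosterol into cholesterol made up 8 of the 24 tested members. They held 3 of the 9 members that lay higher without overlap, and 1 of the 3 that lay lower. Over all tested genes, 17.2% lay higher and 17.2% lower without overlap. None of these 8 enzymes passed, and their median log2 difference was 0.08. Cyp51 (chromosome 5, 4081145 to 4104746), the lanosterol demethylase, stood at 2.95, 3.00 and 2.85 FPKM in the diet libraries and 4.77 and 4.93 with dabigatran. The groups did not overlap, and values within each lay close together, on 24 to 43 fragments per library. Counting error alone allows a wider spread. The 95% exact binomial interval of the ratio between diet replicates 0 and 1 ran from 0.559 to 1.75. Exons of Cyp51 overlap those of Akap9 on the opposite strand. This gave a log2 difference of 0.64 ± 0.23 (SE; 95% interval 0.11 to 1.17; limma adjusted p = 0.238). Dhcr7 (chromosome 7, 143823145 to 143848410), the last reductase of the pathway, stood at 4.69, 4.17 and 4.07 FPKM in the diet libraries and 7.76 and 6.66 with dabigatran. Its groups did not overlap either, on 21 to 44 fragments per library, with a log2 difference of 0.68 ± 0.22 (SE; 95% interval 0.17 to 1.18; limma adjusted p = 0.201).

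Hsd17b7 (chromosome 1, 169949535 to 169969241), a sterol ketone reductase, stood at 5.33, 10.8 and 4.39 FPKM in diet replicates 0, 1 and 2 and 15.7 and 10.99 with dabigatran. Diet replicate 1 nearly reached dabigatran replicate 2, with 91 and 94 fragments in these libraries. The log2 difference was 0.99 ± 0.37 (SE; 95% interval 0.15 to 1.84; limma adjusted p = 0.247). Sc5d (chromosome 9, 42251595 to 42264256), the lathosterol oxidase, stood at 75.4, 68.3 and 74.0 FPKM in the diet libraries and 66.5 and 31.3 with dabigatran. Dabigatran replicate 1 lay just under the diet range and dabigatran replicate 2 far below it, and the log2 difference was -0.66 ± 0.29 (SE; 95% interval -1.34 to 0.01; limma adjusted p = 0.322).

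Ebp, Tm7sf2, Sc4mol and Nsdhl overlapped between the groups. Ebp, the sterol isomerase, stood at 64.2 ± 4.83 FPKM on the diet alone and 63.8 ± 7.38 with dabigatran (SD, n = 3 and n = 2). Its log2 difference of -0.01 had an interval from -0.41 to 0.38, the narrowest of the tested members. The sterol reductase gene Tm7sf2 stood at 16.1 ± 2.75 and 16.6 ± 4.17 FPKM, and the methyl sterol oxidase gene Sc4mol 7.47 ± 2.20 and 7.94 ± 0.0505 (SD, n = 3 and n = 2). Nsdhl, a sterol dehydrogenase, stood at 3.14, 1.81 and 4.87 FPKM in the diet libraries and 3.21 and 1.52 with dabigatran, and its interval was the widest, from -1.35 to 0.60. Of the windows of Tm7sf2, 9.9% are shared with Vps51 on the same strand.

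Among the genes of sterol transport, storage and uptake, Mylip was high and Soat2 low in both dabigatran libraries. None of the 4 passed, and their median log2 difference was -0.16. Mylip (chromosome 13, 45389742 to 45412022) encodes IDOL, a ubiquitin ligase for lipoprotein receptors that LXR, not SREBP2, induces. It stood at 5.54, 6.35 and 4.12 FPKM in the diet libraries and 9.12 and 9.94 with dabigatran, a log2 difference of 0.80 ± 0.24 (SE; 95% interval 0.24 to 1.35; limma adjusted p = 0.175). Soat2 (chromosome 15, 102150526 to 102163469), the enzyme that esterifies cholesterol in hepatocytes, stood at 11.9, 11.4 and 21.3 FPKM in the diet libraries and 11.04 and 4.53 with dabigatran. Dabigatran replicate 1 lay just under diet replicate 1, with 46 and 42 fragments, so the separation was narrow. On the log2 scale the difference was -0.95 ± 0.40 (SE; 95% interval -1.87 to -0.04; limma adjusted p = 0.294).

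Stard4, a cytosolic sterol carrier, stood at 4.34 ± 0.799 FPKM on the diet alone and 4.13 ± 1.42 with dabigatran (SD, n = 3 and n = 2). Tmem97, the sigma-2 receptor that binds the lysosomal sterol transporter NPC1, stood at 32.4 ± 6.25 and 27.1 ± 2.27 FPKM (SD, n = 3 and n = 2), with 20.8% of its windows shared with Gm5809. Both overlapped between the groups.

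**Figure D2:**
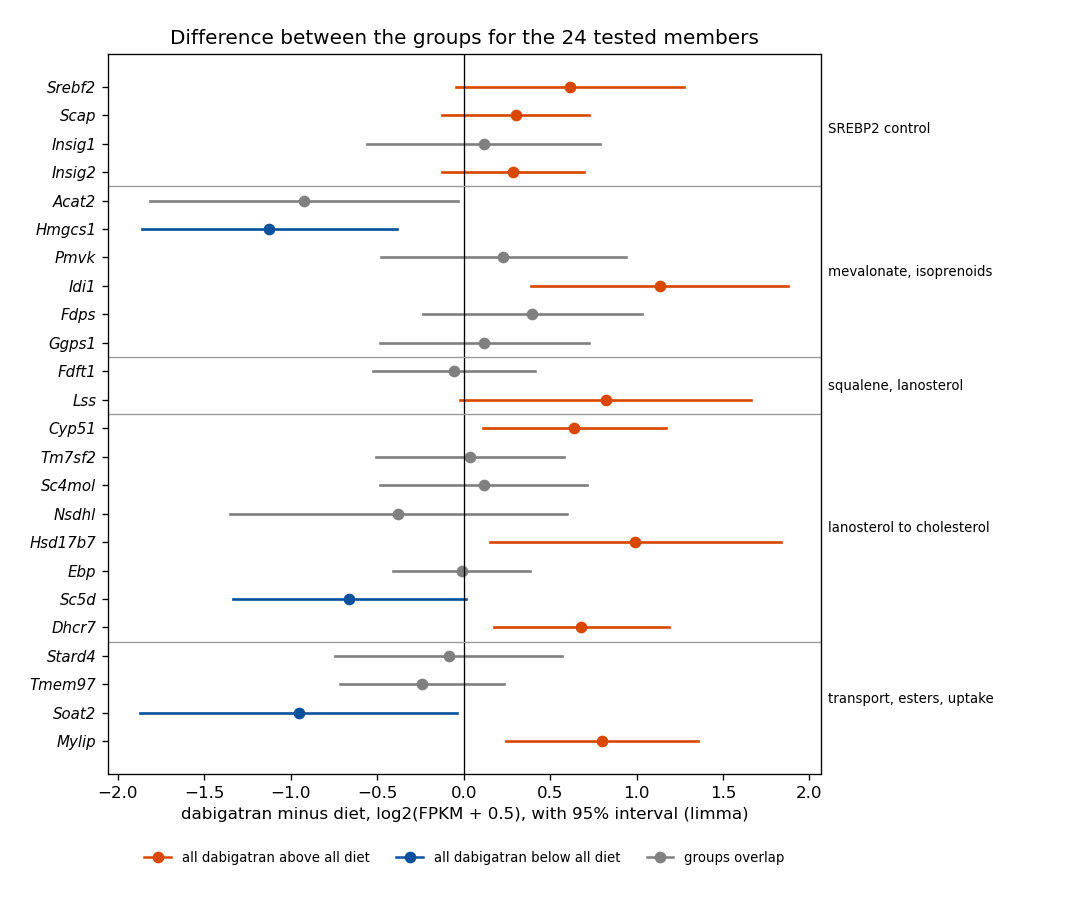
Differences between the groups on the log2(FPKM + 0.5) scale for the 24 tested members, with 95% intervals from limma (horizontal bars), orange where both dabigatran values lie above all diet values, blue where both lie below and grey where the groups overlap. The intervals of 8 members leave out 0, with Idi1 at 1.13 and Hmgcs1 at -1.12 as the extremes, and no member passes after adjustment over all tested genes.

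The 5 libraries differed among themselves as well as by group. Relative to the diet mean, the median over the 24 tested members was -0.01, -0.10 and 0.08 on the log2 scale in diet replicates 0, 1 and 2, and 0.26 and 0.11 in dabigatran replicates 1 and 2. Dabigatran replicate 2 held the lowest value of the 5 libraries for 9 members and the highest for 6, whereas dabigatran replicate 1 held the lowest for 1 and the highest for 7. Among the 12 members whose groups did not overlap, diet replicate 1 was the diet library nearest to the dabigatran libraries in 8, including Hmgcs1, Idi1, Hsd17b7 and Mylip. Some diet library is nearest for every such gene, and the share over all tested genes was not computed. The summed FPKM of all 27 members was 669, 666 and 659 in the diet libraries and 746 and 678 with dabigatran, a sum of which Insig2 makes up a large part.

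Some of the spread within a group exceeded counting error. Between dabigatran replicates 1 and 2, the exact binomial interval of the fragment ratio excluded 1 for 7 of 23 members: Insig1, Hmgcs1, Idi1, Sqle, Hsd17b7, Sc5d and Soat2. The ratio was 1.93 (95% interval 1.37 to 2.74) for Hmgcs1, 0.450 (0.308 to 0.651) for Idi1 and 2.13 (1.72 to 2.64) for Sc5d. Between the pairs of diet libraries, 3 of 22, 4 of 22 and 6 of 23 members did so (replicates 0 and 1, 0 and 2, and 1 and 2). Cyp51, Dhcr7, Srebf2, Lss and Mylip were not among them in any pair, which with as few as 6 fragments, for Lss, does not show that libraries are alike. Mvk, Mvd, Ggps1, Fdft1, Tm7sf2, Sc4mol, Ebp and Stard4, whose groups overlapped, were not among them in any pair either. These intervals compare single libraries, not conditions, and the share over all genes was not computed.

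**Figure D3:**
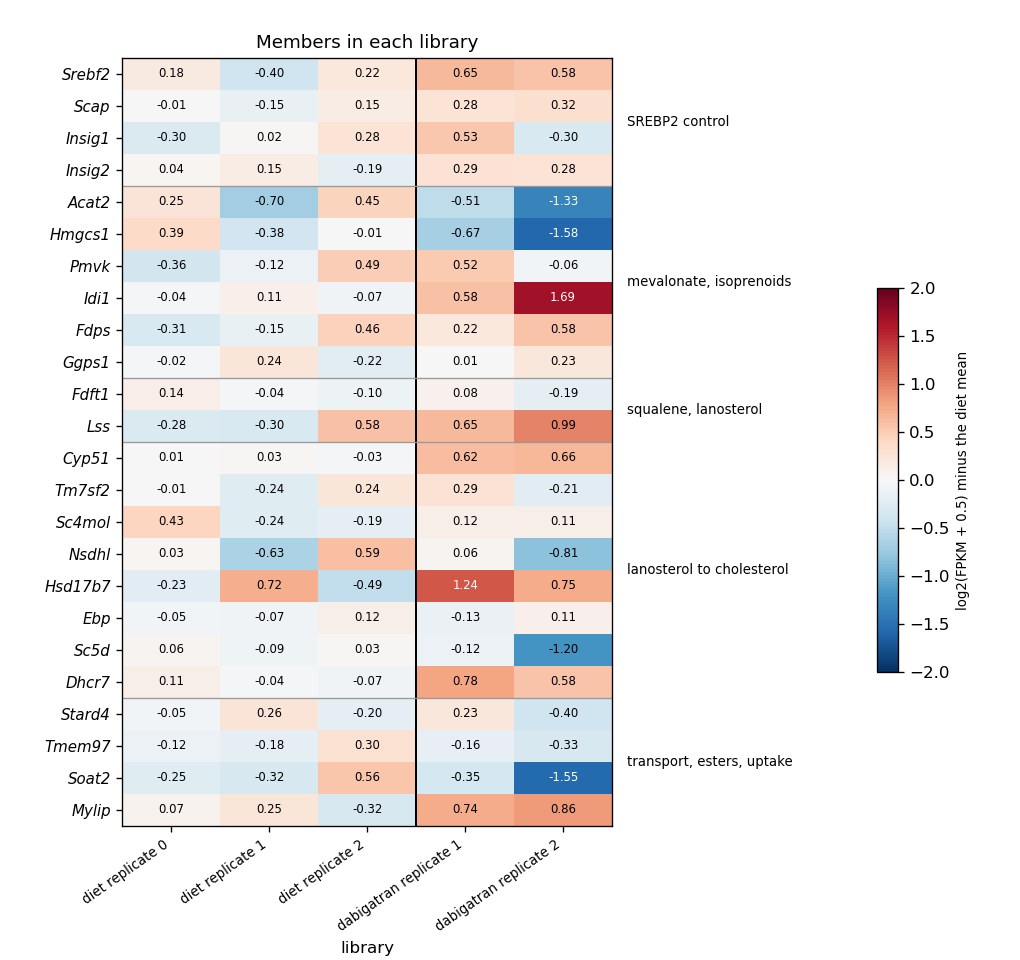
Each tested member in each library as log2(FPKM + 0.5) minus the mean of the diet libraries, with red above and blue below that mean and the diet libraries left of the black line. Cyp51 (0.62 and 0.66) and Dhcr7 (0.78 and 0.58) are displaced in both dabigatran libraries, whereas Idi1 (0.58 and 1.69), Hmgcs1 (-0.67 and -1.58) and Sc5d (-0.12 and -1.20) are most displaced in dabigatran replicate 2.

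Leaving out single libraries changed the size of some differences and the call of 3 members. Without dabigatran replicate 2, the log2 difference was 0.58 for Idi1, -0.67 for Hmgcs1, -0.35 for Soat2 and -0.12 for Sc5d. Without dabigatran replicate 1, where the remaining dabigatran library is assumed to vary like the diet libraries, Idi1 (1.69, limma adjusted p = 0.0293) and Sc5d (-1.20, adjusted p = 0.0382) passed. Without diet replicate 1, Hsd17b7 passed (1.35, limma adjusted p = 0.0429). Over all alternatives the adjusted p ranged from 0.0293 to 0.552 for Idi1, from 0.0382 to 0.898 for Sc5d and from 0.0429 to 0.527 for Hsd17b7. Cyp51 ranged from 0.62 to 0.66 and Dhcr7 from 0.58 to 0.78 when each library was left out, without passing in any of these fits. Over all tested genes, 0.917% rose and 1.77% fell without dabigatran replicate 1, and 0.927% and 1.94% without diet replicate 1, more than the 0.127% and 0.303% with all 5 libraries.

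**Figure D4:**
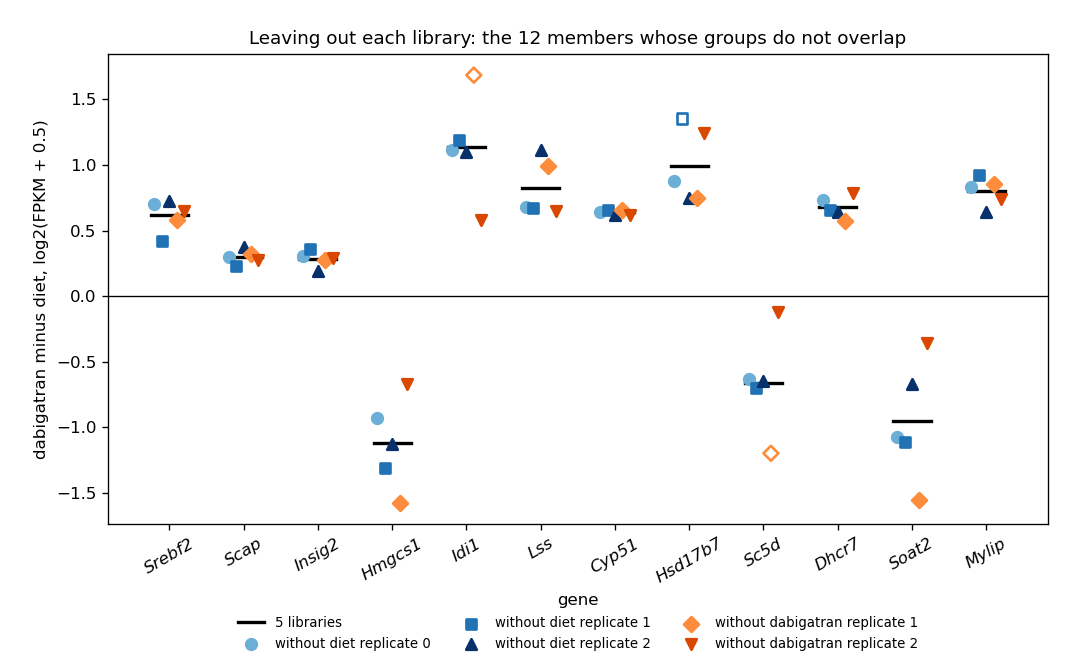
Log2 differences of the 12 members whose groups did not overlap, with all 5 libraries (black bars) and with each library left out (symbols; open where the adjusted p is under 0.05). The symbols of Cyp51 lie between 0.62 and 0.66, while those of Idi1 reach from 0.58 to 1.69 and those of Sc5d from -1.20 to -0.12.

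Other genes of the pathway, listed by role, also gave no call. Of 10 tested genes of SREBP cleavage and INSIG turnover, 0 rose and 0 fell with limma, and 1 was higher and 1 lower at an unadjusted p under 0.05. Over all tested genes, 0.429% passed, and 6.87% were higher and 9.13% lower at that unadjusted level. Erlin1, part of a membrane complex that targets proteins of the endoplasmic reticulum for degradation, stood at 16.0, 16.8 and 14.8 FPKM in the diet libraries and 8.80 and 4.71 with dabigatran (log2 difference -1.23, limma adjusted p = 0.0869). Syvn1, a ubiquitin ligase of that membrane, stood at 10.6, 10.6 and 13.7 FPKM and 14.3 and 25.2 with dabigatran, and Erlin2 stood at 10.1, 6.93 and 9.50 and 7.14 and 4.92. Of 6 tested genes of further synthesis steps, none passed and 2 were lower at an unadjusted p under 0.05. Cyb5b, a cytochrome b5 gene, stood at 64.6, 46.7 and 66.5 FPKM in the diet libraries and 32.0 and 26.2 with dabigatran (log2 difference -1.002, limma adjusted p = 0.0844). The reductase gene Cyb5r3 stood at 133, 76.5 and 139.9 and then 82.1 and 61.7 FPKM, and Aacs, which makes acetoacetyl-CoA, 3.46, 0.874 and 4.40 and then 0.621 and 1.03.

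The genes of the biliary sterol transporter had lower values in both dabigatran libraries. Of 7 tested genes of LXR and its export targets, 0 passed, and 2 were higher and 2 lower at an unadjusted p under 0.05. The shares of all tested genes at that level were 6.87% higher and 9.13% lower. Abcg5 and Abcg8, the 2 subunits of the transporter that moves sterols into bile, had log2 differences of -1.17 and -0.75 (limma adjusted p = 0.0639 and 0.109). Abcg5 stood at 59.9, 59.3 and 57.8 FPKM in the diet libraries and 31.1 and 21.6 with dabigatran. Abcg8 stood at 24.4, 28.2 and 25.7 FPKM in the diet libraries and 16.3 and 14.4 with dabigatran. Nr1h2, which encodes LXR beta, stood at 11.2, 10.3 and 10.7 FPKM and 16.0 and 14.6 with dabigatran (log2 difference 0.49). The efflux pump genes Abca1 and Abcg1, named after their values were seen, lay on opposite sides of the diet range. Abca1 stood at 29.1, 31.1 and 23.3 FPKM and 32.8 and 54.1 with dabigatran (log2 difference 0.60, limma adjusted p = 0.296), and Abcg1 at 1.97, 2.03 and 1.82 FPKM and 1.39 and 1.46 with dabigatran (log2 difference -0.34, adjusted p = 0.598). Of 9 tested genes of sterol trafficking and ester turnover, 0 passed and 1 was lower at an unadjusted p under 0.05. Lipa, the lysosomal lipase that frees cholesterol from its esters, stood at 138, 127 and 116 FPKM in the diet libraries and 92.9 and 48.6 with dabigatran (log2 difference -0.91). Stard3, a sterol carrier of late endosomes, had a log2 difference of -0.44, and Npc2, the lysosomal sterol binding protein, of -0.26. None of the 8 tested genes of the isoprenoid branches passed, and none had an unadjusted p under 0.05. The log2 differences were -0.39 for Coq2 of ubiquinone synthesis, and 0.30 for Nus1 and -0.22 for Dhdds, the subunits of the enzyme that makes dolichol precursors.

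Values of genes that follow time of day and feeding are given beside those of the members, since the labels used here give no hour of sampling or state of feeding. None of 11 tested clock genes passed with limma, with 2 higher and 3 lower at an unadjusted p under 0.05, and the groups did not overlap in 8. The shares of all tested genes were 6.87% higher and 9.13% lower at that level, and 34.4% without overlap. The clock output gene Dbp stood at 12.1, 4.59 and 10.00 FPKM in the diet libraries and 1.25 and 1.74 with dabigatran. Per1 stood at 0.444, 2.45 and 0.643 and then 6.63 and 9.90 FPKM, and Arntl, which encodes BMAL1, 4.38, 5.18 and 4.53 and then 9.03 and 9.12. None of 8 tested feeding genes passed, with 1 higher at an unadjusted p under 0.05. Igfbp1, which insulin represses, stood at 10.5, 105 and 15.6 FPKM in the diet libraries and 211 and 116 with dabigatran, and the gluconeogenic gene Pck1 345, 1007 and 309 and then 1145 and 735. Pklr, the liver pyruvate kinase, stood at 35.1, 18.2 and 36.4 and then 12.4 and 22.5 FPKM. Diet replicate 1 thus lay near the dabigatran libraries for Igfbp1, Pck1 and Pklr. The part of sampling hour and feeding in the members' differences was not tested.

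The tissue was checked against marker lists, and hepatocyte markers were abundant in each library. The 7 hepatocyte markers summed to between 27920 and 30574 FPKM in the diet libraries and to 31034 and 43956 with dabigatran, with 4 higher and 1 lower without overlap. Of all tested genes, 17.2% were higher and 17.2% lower without overlap. The 11 macrophage and Kupffer cell markers overlapped between the groups in each case (sums of 299 to 400.1 and of 292 and 408 FPKM). The 6 sinusoidal endothelial markers summed to 114 to 118 and to 104 and 108 FPKM, with 4 higher and 2 lower without overlap, and the 6 stellate cell markers to 96.9 to 149 and to 108 and 116, with 2 higher and 1 lower. The 5 cholangiocyte markers summed to 32.8 to 51.9 and to 11.1 and 38.9 FPKM, with Krt19 listed at 0 in some libraries. Spp1 made up most of these sums, at 49.4, 31.2 and 39.0 FPKM in the diet libraries and 35.3 and 9.54 with dabigatran. Of these 5 markers, 3 were under 1 FPKM in each library. The 5 adipocyte markers were under 1 FPKM in each library, with Plin1 and Lep listed at 0 in all, and the 6 T and B cell markers summed to 3.42 FPKM or less. The part of hepatocyte, endothelial and stellate cell markers in the members' differences was not tested.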

How the data were processed

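Each deposited table gives 1 FPKM value per gene symbol, the unit named by the authors per the file headers. The submitters' processing notes name, with no role or order, TopHat2 2.0.4, R 2.15.1, Cuffdiff, TopHat and CASAVA, and the builds mm10 and GRCm38. Not given in the sources used here are the annotation, the strand setting, the scaling between libraries and the treatment of reads that fit several genes. An exact 0 can be a failed estimate, so such genes are described as listed at 0.

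The 10247 genes that reached 1 FPKM in 3 or more distinct libraries were tested on log2(FPKM + 0.5) with limma 3.58.1 in R 4.3.3 (lmFit, eBayes with a variance trend, group as the sole term, two-sided, Benjamini-Hochberg over all tested genes, threshold 0.05). This scale understates changes of low genes. The steps were tested on simulated data.

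The members and all lists were chosen with earlier results of these data known, so their counts are descriptions. Each present member is named, with the 3 tested genes of lowest p of each other list of pathway, feeding and clock genes, and Abca1 and Abcg1 were named after their values were seen. Fragments are the smallest whole numbers in the depth-corrected ratio of values, up to 400 and within a relative tolerance of 2e-05. Of 1000 sampled tested genes, 73.4% resolved, against 0% after random shifts. Intervals from fragments cover counting error only. Depth limits members under 1 FPKM to a few fragments. Gene positions, exon overlaps and shared 50-base windows come from GENCODE M21 (GRCm38). Alternatives were other pseudocounts, filters, variance priors and scalings, a replicate block, and each library left out.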

Additional observations from a re-analysis of the deposited data

How the results depend on the processing

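Of 305 pairs of a tested member and an alternative, 286 kept their direction and their side of the threshold, 3 passed it and 16 changed direction. Members that rose or fell numbered 0 and 0 under the 8 alternatives that name no library to leave out (the replicate block gives diet replicate 0 no weight), and 0 to 1 and 0 to 1 when a library was left out (1 rise without diet replicate 1, and 1 rise and 1 fall without dabigatran replicate 1). The changes of direction were in 8 members whose groups overlapped. In the fits that left out a library these had ranges of -0.30 to 0.53 (Insig1), -0.060 to 0.52 (Pmvk), -0.19 to 0.082 (Fdft1), -0.21 to 0.29 (Tm7sf2), -0.00418 to 0.33 (Sc4mol), -0.81 to 0.058 (Nsdhl), -0.13 to 0.11 (Ebp) and -0.40 to 0.23 (Stard4), and Ebp was at 0.089 after quantile normalization. The members' median lay between 0.077 and 0.17 in the fits without a library, apart from 0.26 without dabigatran replicate 2. Members without overlap numbered 10 to 12 higher and 3 to 9 lower when a library was left out (5 and 9 lower without diet replicate 1 and dabigatran replicate 1), beside 21.2% to 34.4% and 21.3% to 31.5% of all tested genes, and with at least 5 FPKM, which leaves 17 members, 5 were higher (17.5% of all). Members at an unadjusted p under 0.05 numbered 8 with all libraries and 5 without diet replicate 0. Without diet replicate 0, 4.31% of all tested genes were higher and 6.05% lower at that level. The other fits that kept both dabigatran libraries had 6 to 9 such members, beside 4.34% to 8.24% higher and 5.96% to 11.2% lower. These counts were added after seeing the data.

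The counts over all tested genes, 13 rose and 31 fell, moved most. They were 6 and 17 with a pseudocount of 0.1, 0 and 0 with no filter on low values or with no variance trend, 8 rose with at least 5 FPKM, 16 fell after quantile normalization, and they ran from 0 to 95 and from 0 to 199 without a library (95 and 199 without diet replicate 1, 94 and 181 without dabigatran replicate 1). The cause was not tested. With the replicate block, Insig1 was at -0.032 and Fdft1 at 0.015, the members' median was 0.077, and 5 genes rose and 8 fell. The numbers 1 and 2 are shared by both groups, and the deviations of same-numbered libraries from their group means had correlations of -0.0448 and -0.0255. With 2 dabigatran libraries these deviations mirror each other, so the correlations cannot decide whether the numbers mark a pairing. No scaling moved the median of all tested genes by more than 0.04 on the log2 scale.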
